A study of Homo sapiens with 2 samples.

Results

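Peaks of the RNA-binding protein PQBP1 that had been given to noncoding transcripts were examined, leaving aside NEAT1, MALAT1, TRIO and the small nucleolar and small Cajal body RNAs. They were chosen from the annotated peak list of the IP library by the RNA type of the assigned transcript (lnc_RNA, ncRNA or miRNA), with no use of a read value. Of 136 peaks with such a type, 37 were set aside by gene name. They were 15 on TRIO, 8 on NEAT1, 7 on MALAT1 and 7 on small Cajal body or nucleolar RNAs. This left 99 of the 1489 peaks of the list, given to 73 of its 718 genes. The 7SK, RNase P, RNase MRP, signal recognition particle and telomerase RNAs carry other types in the list and were not among them. SpyCLIP, in which a tagged protein is crosslinked to RNA in living cells and recovered under stringent washes, had been carried out in HEY cells, a human ovarian cancer line. Both libraries, 1 Input of the nuclear lysate and 1 IP recovered with an anti-FLAG antibody, came from HEY cells that overexpressed PQBP1 with FLAG and Spy tags, were irradiated at 400 mJ per cm2 and were taken down to nuclei. Each group held 1 library and Input values were not analysed here, so all values describe the IP library without a replicate and without a test.

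Long noncoding RNAs are transcripts without a long reading frame, and many act in the nucleus, where they are made. Pseudogenes are copies of other genes, some of which are transcribed. Many coding genes also give transcripts that skip or keep a segment and are annotated as noncoding, often because a premature stop codon marks them for decay. PQBP1 binds components of the spliceosome, which also removes the introns of many long noncoding RNAs. MicroRNAs are cut from short hairpins, which can lie in introns or exons of other genes.

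Of the microRNA genes in the reference table, MIR6819 alone had a peak that the list placed on an exon rather than in intergenic sequence. Its mature products are shown because the later account of microRNA peaks turns on this gene. The capitals mark the seed, bases 2 to 8 from the 5′ end, which sets target choice. The sequences are those of RefSeq on the minus strand of GRCh38.p14, at chr22:36286881-36286902 for the 5p product and chr22:36286847-36286867 for the 3p product.
hsa-miR-6819-5p: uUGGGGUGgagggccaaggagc
hsa-miR-6819-3p: aAGCCUCUguccccaccccag
The MIR6819 peak had 10 reads in its 1 bin of 200 nt (exact Poisson 95% interval 4.80 to 18.4), whereas the hairpin is 61 nt long. MIR6819 lies inside MYH9, the gene of a nonmuscle myosin heavy chain, on the same strand, and MYH9 had 10 peaks with 141 reads of its own. The nearest of them was an exon peak of 14.5 reads per bin at a gap of 800 nt. The reads of the peak cannot be divided between the microRNA precursor and MYH9.

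The read value of a peak is the mean number of reads per 200-nt bin over its bins. In total the 99 peaks held 1853 reads, 4.64% of the 39952 reads in all peaks of the list, and the total depth of the library is unknown. Coordinates of peaks below are 1-based and follow the deposited list, whose genome build differed from GRCh38. Their median was 11 reads per bin (95% interval from order statistics 10 to 12, quartiles 9 and 14.5), and the range was 6 to 109.5. Peaks given to mRNA had a median of 11 as well (10 to 11, quartiles 8.54 and 14, 1338 peaks). At 20 reads per bin or more there were 9 of the 99 peaks (9.09%), beside 9.07% of the whole list. A width of 2 bins or more was seen in 18 peaks (18.2%), beside 15.1% of the whole list, and the widest measured 1000 nt. A peak-caller p-value of 1e-05 or less was given to 43 peaks (43.4%), beside 35.5% of the whole list, and one of 0.001 or less to 64 peaks, beside 58.6%. By read value the noncoding-type peaks lay near the whole list, and the share with a small p-value was higher by a margin that was not tested.

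The 73 genes were divided by their type in the RefSeq gene table, in which 72 were found. Genes of long noncoding RNAs and microRNAs, the true noncoding genes, were given 36 peaks over 28 genes. This was 36.4% of the 99 (Wilson 95% interval 27.6 to 46.2). Coding genes with a noncoding transcript were given 39 peaks over 32 genes, and transcribed pseudogenes 21 peaks over 12 genes. The remaining 3 peaks were given to MIR6723, which the table did not hold. These counts include intergenic peaks. Without them noncoding genes had 25 peaks, coding genes 37 and pseudogenes 11. Median read values were 12 reads per bin for noncoding genes (10 to 15), 11 for pseudogenes (9 to 13) and 10 for coding genes with a noncoding transcript (8 to 12). With intergenic peaks left out, the medians in the same order were 12 (10 to 16), 10 (7 to 14) and 10 (9 to 12). In both cases the 3 intervals overlapped.

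**Figure D1:**
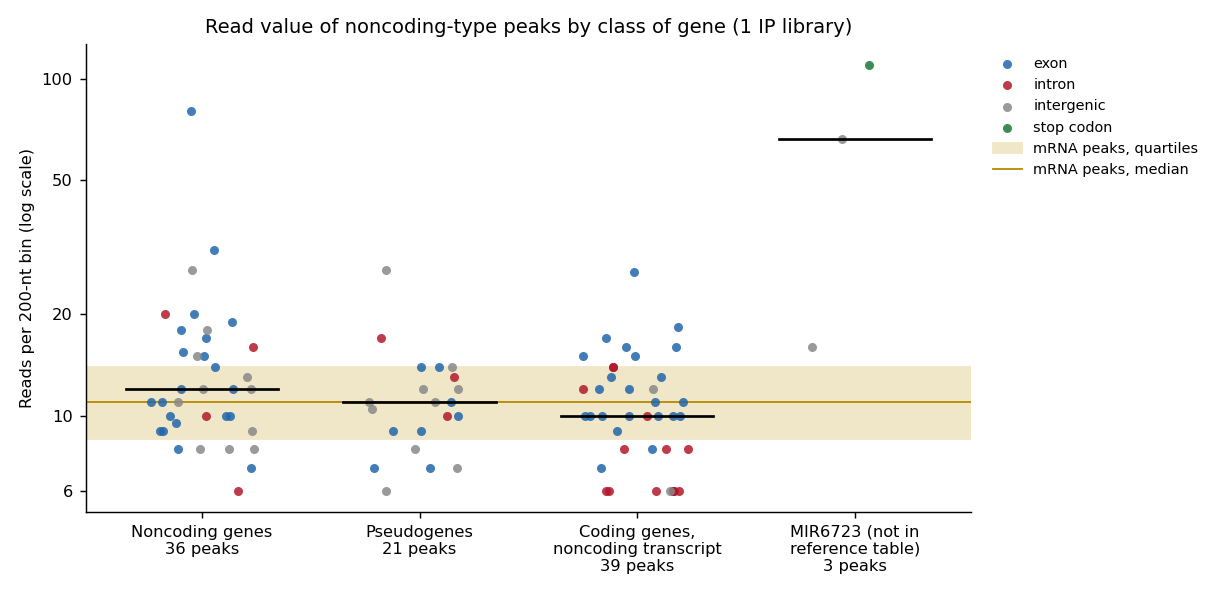
Reads per 200-nt bin (log scale) of each of the 99 noncoding-type peaks of the IP library, by class of gene, with colour for the region class and a black line at each class median; the shaded band and line give the quartiles and median of peaks given to mRNA. Medians of 12, 11 and 10, with intergenic peaks included, lie within the mRNA band. The highest values are those of peaks given to MIR6723 (109.5 and 66) and of LOC284412 (80).

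By region, exons held 53 of the 99 peaks (53.5%, Wilson 95% interval 43.8 to 63.0) and introns 20 (20.2%, 13.5 to 29.2). A further 25 peaks (25.3%, 17.7 to 34.6) were listed as intergenic, beside 2.75% of the whole list and 1.20% of peaks given to mRNA (0.737 to 1.93). The last peak, on MIR6723, was classed as stop codon. Among the 74 peaks that lay on a gene, the exon share was 71.6% (60.5 to 80.6), and it was 62.6% for mRNA peaks on a gene (59.9 to 65.1), with 6.05% more in 3′ UTRs. A noncoding transcript has no UTR classes, so exon shares of the 2 types do not count the same parts. The classes differed in how many peaks lay off the gene, with 11 of 36 for noncoding genes, 10 of 21 for pseudogenes and 2 of 39 for coding genes.

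**Figure D2:**
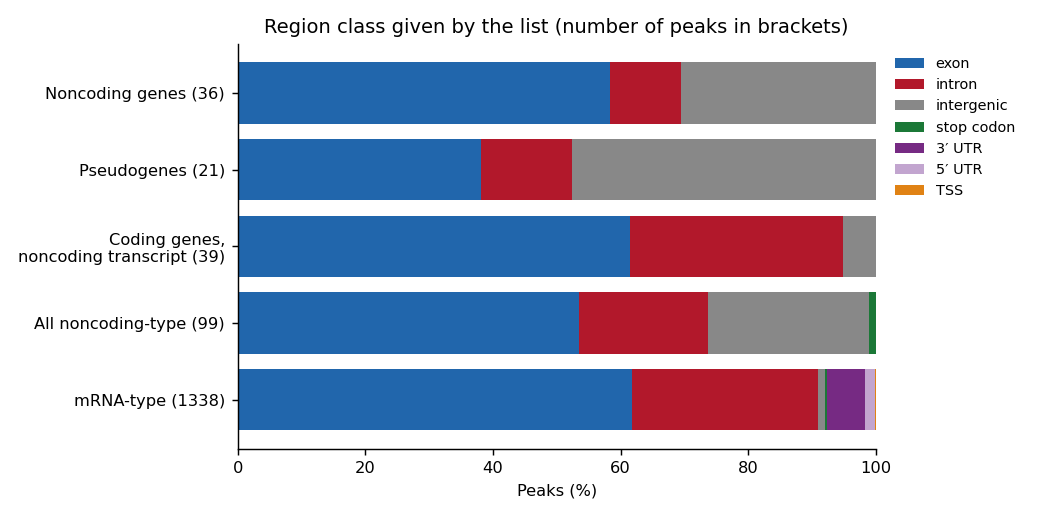
Share of peaks (percent, horizontal axis) in each region class as the list gives it, for 3 classes of gene, for all 99 noncoding-type peaks and for the 1338 peaks given to mRNA. Intergenic peaks make up 25.3% of noncoding-type peaks and 1.20% of mRNA peaks; exons are the largest class in each bar except pseudogenes, where 10 of 21 peaks are intergenic.

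On true noncoding genes there were 25 peaks on 18 genes, with 448 reads. Exons held 21 of them (84.0%, Wilson 95% interval 65.3 to 93.6) and introns 4. A peak-caller p-value of 1e-05 or less was given to 14 of the 25 (56.0%), again beside 35.5% of the whole list. The median was 12 reads per bin both in exons and over all 25 peaks. Of the 18 genes, 13 had 1 peak. By their RefSeq type the 18 include RTEL1-TNFRSF6B, STAG3L5P-PVRIG2P-PILRB and MIR6819, each of which overlaps a coding gene on its own strand.

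The highest of these peaks was that of LOC284412, an uncharacterized long noncoding RNA gene, with 80 reads (63.4 to 99.6) at chr19:37759601-37759800, a single bin. Only 16 of the 1489 peaks had a higher value. Its p-value, 5.19e-12, is the lowest that occurs, and 62 peaks had it, 5 of them among the 99. UGDH-AS1, an antisense gene, followed with an exon peak of 31 reads at chr4:39596001-39596200 (21.1 to 44.0). Its second exon peak, at chr4:39594601-39594800, had 19 (11.4 to 29.7), and the intervals of the pair overlapped. The interval of LOC284412 did not overlap those of UGDH-AS1 or of any other peak on a noncoding gene of the table.

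LINC00504, a long intergenic noncoding RNA gene, had 20 reads in 1 exon peak (12.2 to 30.9), at chr4:14475801-14476000. RTEL1-TNFRSF6B, a readthrough gene whose transcript the list describes as a candidate for nonsense-mediated decay, had 20 reads in 1 intron peak (12.2 to 30.9). RTEL1, which encodes a telomere helicase, and TNFRSF6B, which encodes a decoy receptor, had 1 peak each in the list, with 10 and 29 reads. The same stretch of RNA belongs to both the readthrough gene and its parts, so these labels cannot be separated by position.

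LOC100129434 carried 3 exon peaks within 1200 nt on chromosome 2, with 15.5 reads per bin (10.5 to 22.0), 12 (6.20 to 21.0) and 18 (10.7 to 28.4), 61 reads in all. KCNQ1OT1, the unspliced antisense RNA that silences imprinted genes around KCNQ1, carried 3 exon peaks within 3600 nt on chromosome 11. Their values were 9 (4.12 to 17.1), 7 (2.81 to 14.4) and 12 reads per bin (7.69 to 17.9). The gene is 91667 nt long in RefSeq, so the peaks covered a small stretch of it. Neighbouring pairs were also found on LINC02043, with 10 and 17 reads within 800 nt, and on the readthrough gene STAG3L5P-PVRIG2P-PILRB, with 9 and 14 reads within 800 nt. Within each of these 4 genes the intervals of the peaks overlapped.

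Host genes are noncoding genes whose introns release small RNAs. SNHG17 and SNHG7, hosts of small nucleolar RNAs, had 16 reads in an intron peak (9.15 to 26.0) and 15 reads in an exon peak (8.40 to 24.7). LRRC75A-AS1, now named SNHG29 and a host as well, had 9.5 reads per bin in an exon peak of 400 nt (5.72 to 14.8). MIRLET7BHG, the host of let-7b, had 10 reads in an intron peak (4.80 to 18.4). The intervals of the 4 overlapped, and each held the mRNA median of 11. Whether the reads came from the host transcript or from a small RNA within it was not tested.

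The other noncoding genes had values at or below the mRNA median of 11 reads per bin. LINC01873 and LOC101926898 (now RCAN2-DT) had 11 reads per bin, LOC400002 (now CLEC12A-AS1) 10, PLCG1-AS1 8 and LINC01237 6 in an intron. Of the 18 noncoding genes, 13 overlap a protein-coding gene in the RefSeq table and 9 overlap one on the opposite strand. KCNQ1OT1 and KCNQ1, UGDH-AS1 and SMIM14, LOC400002 and CLEC12A, and PLCG1-AS1 with both TOP1 and PLCG1 are such pairs. For MIRLET7BHG and SNHG17 the only coding gene overlapped is known by a LOC number alone. In 3 of the 18 cases the overlapped coding gene had a peak of its own (MYH9, PLCG1, and RTEL1 with TNFRSF6B). These overlaps are of whole gene spans, and whether a peak lay in the shared stretch was not measured. The PLCG1-AS1 peak lay 66600 nt from the PLCG1 peak. The strand in the list is that of the annotation. Where a peak does lie in a shared stretch, reads of a gene and of its antisense partner therefore cannot be told apart.

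**Figure D3:**
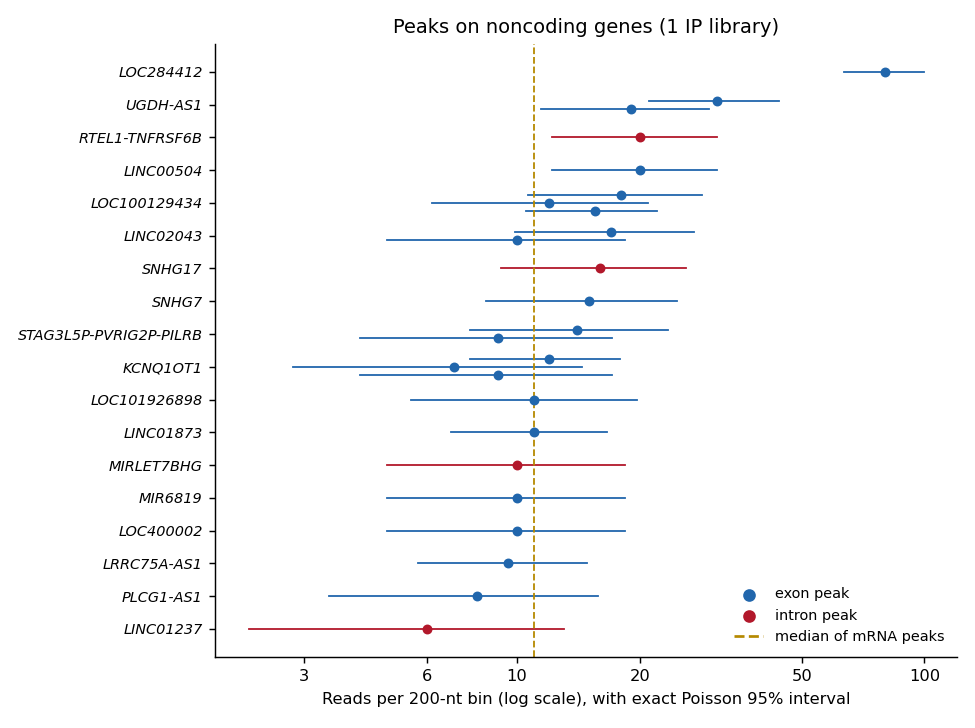
Reads per 200-nt bin (log scale) of the 25 peaks on 18 noncoding genes in the IP library, 1 point per peak with its exact Poisson 95% interval, blue for exon and red for intron peaks; the dashed line is the median of mRNA peaks, 11. LOC284412 at 80 stands apart from the rest, which run from 6 to 31.

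Lists of noncoding genes were looked up in the whole peak list. Of 42 names of host genes of small nucleolar RNAs and microRNAs, 3 had a peak, the SNHG genes given above, and the other 39, GAS5, ZFAS1, DANCR, EPB41L4A-AS1, DLEU2, MIR17HG, MIR22HG, MIR31HG, MIR100HG and MIR99AHG among them, had none. Of 21 names of widely studied long noncoding RNAs, KCNQ1OT1 alone had peaks, and H19, MEG3, HOTAIR, PVT1, NORAD (also under its older name LINC00657), OIP5-AS1, TUG1, CYTOR, MIAT, FTX, LINC-PINT, FGD5-AS1, TTN-AS1, HOTAIRM1, UCA1, CCAT1, CRNDE, HCG18 and JPX had none. Of 15 structured small RNAs, 6 had peaks under other types, while the 4 vault RNAs, the 4 Y RNAs and BCYRN1 had none. No gene named as a spliceosomal U RNA appeared. The share of all annotated genes that had a peak was not computed, so these counts do not show that the listed genes were rarely bound. The lookup was by name, so a gene without a peak is one whose name no peak of the list carried. A peak within such a gene can carry the name of another gene that lies inside it, as MIR6819 lies inside MYH9. As the list starts at 6 reads per bin, a gene without a peak is also not one without binding.

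Pseudogenes carried 11 peaks on 4 genes and 10 intergenic ones. PKD1P1, a copy of the polycystin gene PKD1, had the most peaks of any of the 73 genes. Its 6 peaks lay within 11000 nt on chromosome 16 and held 126 reads. The 3 exon peaks had 14 (9.30 to 20.2), 14 (7.65 to 23.5) and 11 reads per bin (7.99 to 14.8), and the 3 intron peaks had 10 (4.80 to 18.4), 17 (9.90 to 27.2) and 13 (6.92 to 22.2). Exon and intron values overlapped. PKD1 itself had 1 exon peak of 12 reads.

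HERC2P2, a copy of the ubiquitin ligase gene HERC2, had exon peaks of 10 (4.80 to 18.4), 7 (2.81 to 14.4) and 9 reads (4.12 to 17.1) over 34200 nt, and HERC2 had 2 exon peaks with 17 reads in all. PDXDC2P had 9 reads in 1 exon peak and WASH5P 7. PDXDC1, the related gene looked up for PDXDC2P, had no peak. SDHA, EMB, GYG2 and TEKT4, looked up for pseudogenes with intergenic peaks alone, had none either. Pseudogenes share sequence with their parent or with further copies, so the division of reads among copies is uncertain. How multiply mapped reads were placed is not given in the sources used here.

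Coding genes with a noncoding transcript carried 37 peaks on 30 genes and 2 intergenic ones. Exons held 24 of the 37 (64.9%, Wilson 95% interval 48.8 to 78.2) and introns 13 (35.1%, 21.8 to 51.2). The median was 11 reads per bin for those in exons (10 to 15) and 8 for those in introns (6 to 12). Peaks given to mRNA had 11 in exons (11 to 12, 827 peaks) and 9 in introns (8 to 10, 389 peaks). A p-value of 1e-05 or less was given to 11 of the 37 (29.7%), beside 35.5% of the whole list. In both exons and introns the intervals of the medians overlapped those of mRNA.

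The 30 coding genes are described in order of their textbook roles, in a grouping made after the names were seen. The other genes of the list were not grouped, so the counts show nothing particular to these genes. Genes of splicing and RNA-binding proteins were 10 of the 30 and had 14 peaks, 11 in exons, with a median of 10 reads per bin and a range of 6 to 17. PRPF38B, a pre-mRNA processing factor, had 17 reads per bin in an exon peak of 400 nt (11.8 to 23.8). SFPQ, a paraspeckle and splicing protein, had exon peaks of 16 (10.9 to 22.6) and 10 reads per bin (4.80 to 18.4). CLASRP, a partner of the kinase CLK4, had 3 exon peaks of 12 (6.20 to 21.0), 15 (8.40 to 24.7) and 10 reads (4.80 to 18.4), spread over 14800 nt.

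YBX1, a cold shock domain protein, had exon peaks of 13 (6.92 to 22.2) and 10 reads (4.80 to 18.4). RBM39 had 1 exon peak of 10 reads, and DDX46, a helicase of the U2 snRNP step, an intron peak of 10. RBM5 in an exon, and PSPC1 and HNRNPA1 in introns, had 6 reads, the lowest value of the list. Genes tied to splicing as kinases or cyclins had 4 peaks. CLK1, which phosphorylates SR proteins, had 12 reads in an exon, CDK11A 8 in an intron, and CCNL2, a cyclin that pairs with CDK11, had intron peaks of 14 (9.30 to 20.2) and 6 reads per bin (2.20 to 13.1).

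ACTG1, which encodes cytoplasmic gamma actin, held the most reads of the coding genes, 188 in 3 exon peaks within 2200 nt on chromosome 17. Their values were 16 (9.15 to 26.0), 18.4 (14.8 to 22.6) and 26.7 reads per bin (21.1 to 33.2), and the peak of 18.4 was 1000 nt wide, the widest of all 99. ACTB, its close relative, had 3 peaks and 162 reads in the list, and reads of the 2 actins may be divided between them with error. TUBB, a beta tubulin, had 15 reads per bin in an exon peak of 400 nt (10.1 to 21.4). CCT3, a chaperonin subunit that folds actin and tubulin, had 8 reads, RPL13A 9 and RHOU 7, all in exons. With these the cytoskeleton, folding and translation genes had all 7 of their peaks in exons.

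Genes of chromatin and DNA proteins had 3 intron peaks and 1 exon peak. AKAP8L, a nuclear matrix protein, had 14 reads (7.65 to 23.5), ANKRD11, a chromatin regulator, 12 (6.20 to 21.0) and POLD1, the catalytic subunit of DNA polymerase delta, 8, all in introns. KMT5A, a histone H4 methyltransferase, had 10 in an exon. Of the others, AUP1 had 13 reads (6.92 to 22.2), IFITM3 11, MMP11 11 and RUSC2 10 in exons, and RNF123 8, B3GNTL1 6, LMF1 6 and OSBPL3 6 in introns. All were 1 bin wide.

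Some coding genes carried labels of both kinds. Of the 30 coding genes, 8 also had peaks that the list gave to an mRNA of the gene, and 22 had noncoding-type peaks alone. The median of the noncoding-type peaks was higher than that of the mRNA peaks in 3 of the 8 genes (ANKRD11, MMP11 and TUBB), lower in 4 (DDX46, RBM39, RNF123 and RPL13A) and equal in CCNL2. RBM39 had 10 reads (4.80 to 18.4) in its noncoding-type exon peak and 7, 11.5 and 53 reads per bin (39.7 to 69.3 for the last) in its mRNA exon peaks. In TUBB the noncoding-type exon peak of 15 reads per bin lay beside an mRNA exon peak of 13. DDX46, with the widest gap between medians, had 10 reads in the noncoding-type intron peak and 16 (9.15 to 26.0) in the mRNA exon peak. Apart from the RBM39 peak of 53 reads, noncoding-type and mRNA intervals overlapped in each of the 8 genes. Whether a read came from the noncoding or the coding transcript cannot be told apart where they share the exon.

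**Figure D4:**
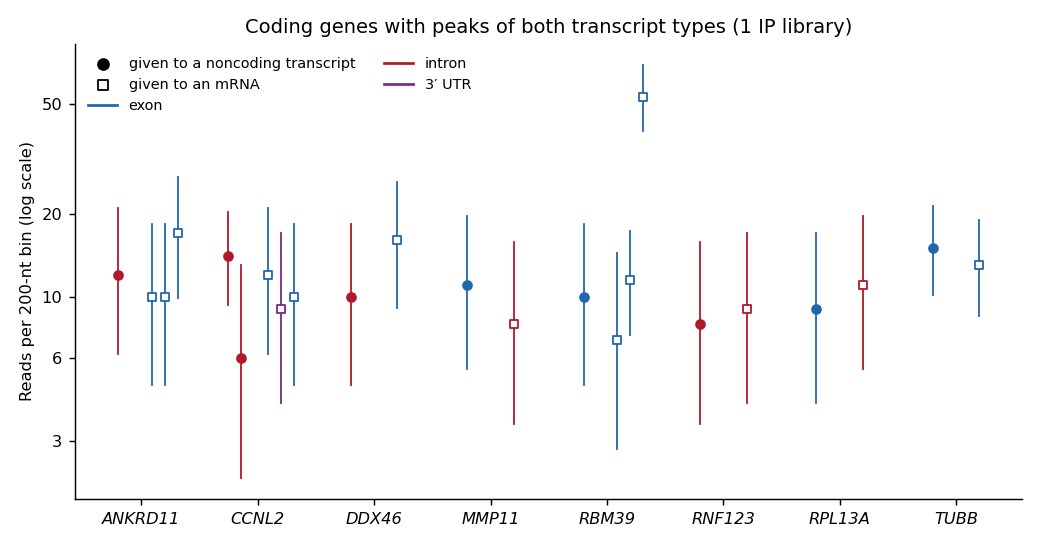
Reads per 200-nt bin (log scale) in 8 coding genes whose peaks in the IP library were given in part to a noncoding transcript (filled circles) and in part to an mRNA (open squares), with exact Poisson 95% intervals and colour for the region class. The RBM39 mRNA peak of 53 reads lies above the rest, which run from 6 to 17.

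The 25 intergenic peaks made up 61.0% (Wilson 95% interval 45.7 to 74.3) of all 41 intergenic peaks of the list, and the other 16 were given to mRNA. An intergenic peak bears the type of the transcript assigned to it without lying on it, so these values are not levels of the named genes. Their median was 12 reads per bin (9 to 13, quartiles 8 and 14), and 12 of the 25 (48.0%) had a p-value of 1e-05 or less, beside 35.5% of the whole list and 39.0% of all 41 intergenic peaks. They were given to 21 genes. Pseudogenes were given 10, noncoding genes 11, MIR6723 2 and the coding genes ANKRD30BL and CD40 2, of 12 and 6 reads. How far each peak lay from its gene was not measured. Whether the reads of these peaks also match other parts of the genome was not tested.

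The highest value of the 99 peaks was that of a peak given to MIR6723. This stop codon peak, at chr1:567201-567600, had 109.5 reads per bin (95.5 to 125.0). Of the intergenic peaks given to MIR6723, the one at chr1:566401-566600 had 16 reads (9.15 to 26.0). The one at chr1:569801-570000 had 66 (51.0 to 84.0), so that all 3 lay within 3600 nt. Whether the reads came from a transcript of MIR6723, or from like sequence elsewhere in the genome, was not tested. Together they held 301 reads, 16.2% of the reads of the 99 peaks. The 3 intervals did not overlap. The stop codon class is the one the list gives, although a microRNA gene codes for no protein.

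Of the other intergenic peaks, LINC01262 had 27 (17.8 to 39.3) and 18 reads per bin (12.6 to 24.9) within 1600 nt on chromosome 4, and the pseudogene TEKT4P2 had 27 (17.8 to 39.3) and 14 (7.65 to 23.5) within 1000 nt on chromosome 21. LOC100134317 (now CYKILR) had 15 reads, XLOC_007697 13, DBET 12 and HRAT5 (now PDCD6-DT) 12. Peaks given to the pseudogenes ZNF733P, EMBP1, GYG2P1, ELK2AP, LOC100288778 (now WASH8P) and SDHAP3 had 12, 10.5, 11, 8, 7 and 6 reads per bin. DDX11L16 was given 1 peak of 12 reads per bin on chromosome X and 1 of 11 on chromosome Y, 400 nt wide each, whose intervals overlapped (7.69 to 17.9 and 6.89 to 16.7).

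Intergenic peaks given to the 5 other microRNA genes had lower values than the 16 and 66 reads of those given to MIR6723. MIR4436A had 11 reads, MIR607 9, and MIR4422, MIR4456 and MIR4472-1 8 each, all in 1 bin, with overlapping intervals. With MIR6723, 7 of the 9 peaks of type miRNA were intergenic, and MIR6819 was the single one classed as exon.

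In the whole peak list 8 epithelial, ovarian carcinoma and mesenchymal marker genes were also looked up. Peaks were found on the keratin genes KRT7 (5 peaks, 80 reads) and KRT8 (2 peaks, 22 reads) and on the vimentin gene VIM (5 peaks, 236 reads), and none on KRT18, EPCAM, PAX8, WT1 or MUC16. A peak list of a pull-down gives no RNA level, so the absence of a peak says nothing of expression. The identity of the line was therefore not checked.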

How the data were processed

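The deposited list holds the IP peaks of 1 library. Per the methods, the authors used Trimmomatic for trimming and RNAcentral for discarding ribosomal sequence before alignment to hg38 (TopHat2 2.0.13 in the submitters' processing notes). Piranha then found the peaks, and HOMER supplied their annotation. The deposited read value is a coverage signal, read as mean reads per 200-nt bin because value times bins was whole (within 0.001 per bin) in 1489 of 1489 peaks. It is not scaled to depth, which is unknown. The deposited p-value is that of Piranha, at most 0.0467, with adjustment not stated by the authors. How Input entered the calling is not stated.

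Positions are counted from 1 in the build of the list, which was not GRCh38: 13 of 73 peaks on a gene (17.8%) overlapped its GRCh38 span. No sequence was read by list position. Gene types, gene overlaps and microRNA sequences came from RefSeq tables (GRCh38.p14) by gene identifier or symbol, and strands from GENCODE release 44. Of 7 microRNA genes, 5 had a mature sequence in the table. Shares carry Wilson 95% intervals, single peaks exact Poisson ones and medians order-statistic ones, computed with Python 3.11.15 and scipy 1.17.1 and checked on simulated data. They cover counting error only, since no molecular identifiers were counted and reads can be copies of 1 molecule.

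Groups came from library titles. With 1 IP library no test was run. The members and lists were chosen with earlier results of these data known. Every noncoding gene with a peak on it was named (up to 40), of coding genes the 10 highest and those with 2 or more peaks, every microRNA peak and the 5 highest intergenic peaks, and the others were added after their values were seen. Alternatives were p-value limits of 0.001 and 1e-05, a minimum of 10 reads per bin, 1 peak per gene, no intergenic peaks, no structured RNAs, classes from symbols, and weighting by reads or nucleotides. Leaving out MIR6723 and joining pseudogenes to noncoding genes were chosen after seeing the data. Results for 1 coding gene, which is included in the counts, are not reported here.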

Additional observations from a re-analysis of the deposited data

How the results depend on the processing

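Of 44 alternative values, 31 stayed within the 95% interval of the reported value, or within 1.5 times of it for counts, and 13 moved. Some that stayed could not move, because the structured RNAs left out held no member. The share of reads was judged by a Wilson interval over reads, which takes reads as independent. The p-value limit of 0.001 left 64 noncoding-type peaks and 13 intergenic ones, raised their median to 13 reads per bin and their share of reads to 4.97%. The limit of 1e-05 left 43 peaks and 12 intergenic ones, with a median of 14, and 15.5 for true noncoding genes. These falls in number follow from the limits themselves. A minimum of 10 reads per bin, which acts on the value described, gave a median of 13. Without intergenic peaks the exon share was 71.6%, and joining pseudogenes to the noncoding genes gave them 57.6% of the peaks. Leaving the structured RNAs out of the list raised the share of reads to 5.26%, since the total fell while no member was lost. Without MIR6723 the share of reads was 3.91%. No paired analysis was possible because Input and IP were sequenced as 1 library each. At a median of 11 reads per bin, intervals of single peaks are wide, and peaks of 6 to 9 reads cannot be ranked.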

Other observations

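The p-value of a peak and its read value did not always rank the noncoding-type peaks alike. The wider LINC01262 peak, with 18 reads per bin over 400 nt, had a p-value of 0.0117, and the 1-bin LOC100129434 peak of 18 reads had 1.76e-09. The LRRC75A-AS1 peak of 9.5 reads per bin had 0.0197, and the MIR6819 peak of 10 reads had 4.28e-08. All 10 of the noncoding-type peaks with 6 reads shared a p-value of 0.0387. The RNF123 peak of 8 reads and peaks of 9 reads on KCNQ1OT1 and HERC2P2 had it as well. The CLASRP peak of 12 reads and the intergenic peaks of 12 reads given to ANKRD30BL and HRAT5 shared 3.83e-10. The cause was not tested.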
